A study of Mus musculus with 139 samples.

Results

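In a small RNA atlas of mouse tissues, 196 of the 2207 rows classed as miRNA have a plain name from Mir6896 to Mir7094, out of 6114 rows of small RNA genes in all. They were chosen by name and class alone, with no measured value. Another 5 rows with such a number and a suffix were left out, and 0 of them reached the count rule used here. That rule, 10 or more raw counts in at least 3 of the 134 libraries, was met by 53 of the 196. The other 143 had counts but fell short of it, and 0 were without a count in every library. The mice were wild-type C57BL/6J, an inbred laboratory strain, 3 months old, and no treatment is named. Of the 11 tissues, brain, kidney, muscle and spleen gave 14 libraries each, lung, heart and liver 13, pancreas, bone marrow and intestine 12, and testis, by its label, 3. Libraries were made in 3 pools and came from 14 animals. For animals 1 to 10, the brain, bone marrow, heart, intestine and muscle went into pool N469, and the other tissues into pool N467. Everything from animals 11 to 14 is in pool N541. By the column names the first 10 animals were female and the others male, so pool N541, its animals and their sex cannot be told apart.

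Most miRNAs are cut from long primary transcripts by the Drosha complex in the nucleus and then by Dicer in the cytoplasm. Mirtrons skip the first cut: the spliceosome excises an intron, the lariat is opened, and the freed intron folds into a hairpin that Dicer can process. In a tailed mirtron the hairpin takes up only one end of the intron, and the rest is trimmed off by exonucleases. A mirtron can be made only where its host gene is transcribed and spliced, and mirtrons are usually less abundant than miRNAs made by Drosha. Introns begin with GU and end with AG, so a hairpin that reaches an intron end carries those bases.

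By position, all 196 members lay in or at an intron of a gene on the same strand (GENCODE M21, GRCm38). Of these, 188 were inside an intron of a protein-coding gene and 8 spanned an intron end. The hairpin ended exactly at the last base of the intron in 183 of the 188, against 25 of 680 other miRNA rows inside an intron. The median distance from hairpin to intron end was 0 bases for members and 5114 bases for the other rows. Of the 183, 168 had an upstream tail, 14 were the whole intron to the base, and 3 more members of the 188 started at the first intron base and left a downstream tail. The introns were shorter than those of other intronic miRNAs, with a median of 479 against 12689.5 bases. Still, only 58 of the 188 introns were 150 bases or shorter, so the set is better described by hairpins that end where the intron ends than by short introns. An exon of another transcript on the same strand overlapped 31 of the 188, and reads there cannot be told from that exon. There were 191 host genes, and Ankrd52, Arap3, Cmip, Skiv2l and Srebf1 held 2 members each.

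**Figure D1:**
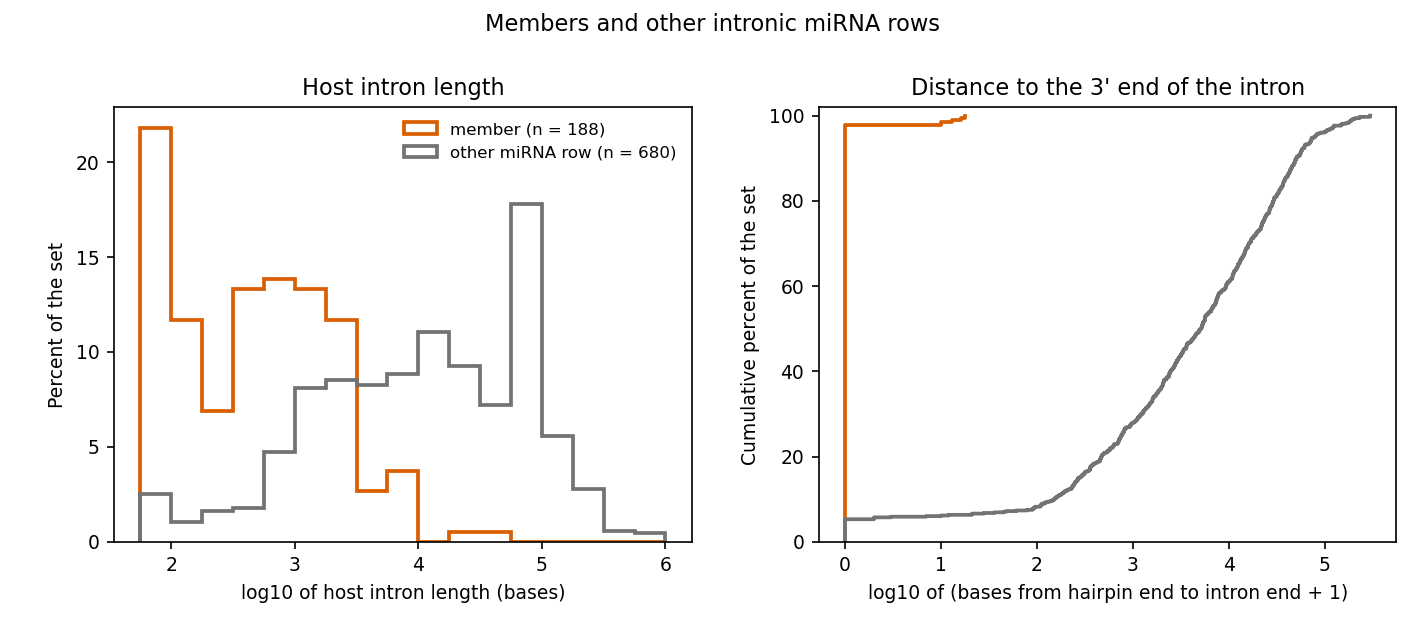
Host intron length in log10 bases (left, percent of each set per bin) and distance from the hairpin to the 3′ end of the intron in log10 of bases + 1 (right, cumulative percent), for 188 members (orange) and 680 other intronic miRNA rows (grey). The orange curve on the right starts near the top because 183 of 188 members end at the last base of their intron, while 25 of 680 other rows do.

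The hairpins below belong to members on which the tissue results turn, and are shown because they carry both kinds of intron end. They are from RefSeq for GRCm38.p6, 5′ to 3′, and the capitals mark intron-end bases: the GU at the first base of the intron where the hairpin reaches it, and the AG at the last.
Mir7068 hairpin: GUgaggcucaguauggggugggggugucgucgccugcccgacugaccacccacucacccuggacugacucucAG
Mir6944 hairpin: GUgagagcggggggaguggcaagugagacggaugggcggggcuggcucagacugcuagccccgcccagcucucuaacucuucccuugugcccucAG
Mir6958 hairpin: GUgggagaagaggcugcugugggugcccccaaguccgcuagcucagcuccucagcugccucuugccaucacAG
Mir6977 hairpin: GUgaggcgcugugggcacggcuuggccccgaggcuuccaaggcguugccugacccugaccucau
Mir6896 hairpin: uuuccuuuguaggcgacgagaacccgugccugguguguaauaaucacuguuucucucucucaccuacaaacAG
Mir6969 hairpin: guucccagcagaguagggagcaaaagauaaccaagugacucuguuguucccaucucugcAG
Mir7068, Mir6944 and Mir6958 are whole introns and carry both ends. Mir6977 starts at the first intron base and stops short of the last. Mir6896 and Mir6969 are the ends of longer introns and carry AG alone.

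Over all members, 164 of 175 with a RefSeq hairpin ended in AG, against 61 of 709 other miRNA rows. The mature sequence of the 3′ arm ended in AG in 136 of 172 members and 58 of 461 others. The seed, bases 2 to 8 of a mature miRNA, is what pairs with target transcripts, and is in capitals in the mature sequences of the members named most below.
miR-7068-5p: gUGAGGCUcaguauggggugg
miR-7068-3p: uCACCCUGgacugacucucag
miR-7023-3p: uCACCCUGucugcgccccucag
miR-6944-5p: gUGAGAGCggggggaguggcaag
miR-6944-3p: uAACUCUUcccuugugcccucag
miR-6958-5p: gUGGGAGAagaggcugcugugg
miR-6958-3p: uCAGCUGCcucuugccaucacag
miR-7044-5p: gUGUGGUGgugguggcggc
miR-7044-3p: aUGCAGCCccgacccucacag
miR-6896-5p: uUUGUAGGcgacgagaacccgu
miR-6896-3p: uUUCUCUCucucaccuacaaac
miR-7052-5p: uGUGGGAAgguggaggccuuu
miR-7052-3p: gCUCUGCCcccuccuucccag
miR-6977-5p: gUGAGGCGcugugggcacggcuugg
miR-6977-3p: aAGGCGUUgccugacccugacc
miR-6969-5p: cAGCAGAGuagggagcaaaaga
miR-6969-3p: uGUUGUUCccaucucugcag
miR-6988-5p: gGGGUGGAgagcugaggccca
miR-6988-3p: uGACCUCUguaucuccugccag
miR-7015-5p: uCUGUGCAguaggcuguggguuc
miR-7015-3p: uCUCACUGuccucugcacuag
miR-7043-5p: uGUGAAAGcagagaggcauuuuu
miR-7043-3p: aCUGUGCCucucuguuuucag
The 5′ arms of the 3 whole introns and of Mir6977 start with the intron's own GU. A mature sequence was found for 47 of the 53 described members, 91 sequences in all. These held 89 seeds, so 2 seeds were shared and the rest occurred once. CACCCUG was shared by miR-7068-3p and miR-7023-3p, and GGGCUGA by miR-6911-5p and miR-7079-5p. The 5′ arms of members were richer in G and C, with a median of 59.1% against 50.0% for other miRNA rows. The table counts reads per hairpin and does not separate the arms.

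The depth of a library was between 10255 and 34095704 counts (median 6327550). Pancreas made up 6 of the 8 libraries under 100000. The marker miRNAs of most tissues were highest where the labels put them, with exceptions. No levels were obtained under the names chosen as brain markers, so the brain label was not checked in this way. Skeletal muscle Mir206 had a brain median of 1.44 CPM but a highest brain value of 136, above the lowest muscle library at 115. Mir133b reached 63.6 CPM in brain. Whether this bears on brain levels of members high in muscle was not tested. Mir30a, taken as a kidney marker, was highest in liver, and Mir142, taken as a marrow marker, in spleen. In the libraries labelled testis, Mir741, Mir880, Mir883a and Mir465 of the X-linked testis cluster were at 0 counts and Mir871 had 4, so those libraries are called by their label here. The library labelled Pancreas 11 had intestinal Mir215 at 81716 CPM, the count scaled to 1000000 counts in the library, where the other pancreas libraries had at most 1.60. Intestine 1, 5, 6, 9 and 10 carried pancreatic acinar Mir217 at 16.5 to 190 CPM, against 0 to 1.29 in the other intestine libraries. These are bulk tissues, so more cells of a type and more RNA per cell cannot be told apart. Results that rest on Pancreas 11 or on Intestine 1, 5, 6, 9 and 10 are given with and without them.

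Members were sparse. They took 68900 counts, 0.00640% of all counts, and the median member had 73 counts over all libraries. Their range was wide: Mir7068 alone held 33.7% of member counts, the leading 10 members 63.9%, and the 53 described members 86.4%. Even so, 0 of 196 were never seen, whereas 890 of the 2011 other miRNA rows had no count. Among the 971 of those rows that are also named Mir, 163 had no count. The count rule was met by 27.0% of members, by 49.0% of those 971 rows and by 26.6% of all 2011. Of neighbouring names, 65 of the 103 rows from Mir6000 to Mir6895 and 18 of the 117 from Mir7095 upward had none. The count rule was met by 6 of the 14 whole-intron members, by 42 of the 168 with an upstream tail and by 2 of the 3 with a downstream tail. The whole introns held 47.7% of member counts, and Mir7068 and Mir6944 held nearly all of that. By intron length, 22 of 58 members in introns of 150 bases or less met the rule, and 28 of 130 in longer introns. Counts are not divided by length, and hairpins ran from 52 to 137 bases.

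The rule has a threshold, so the members nearest to it are given. Just inside, the third-largest library held 10 counts for Mir6925 and 11 for Mir6977 and Mir6921. Just outside, it held 9 for Mir7048, Mir6964 and Mir6906.

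The described members differed in how widely they were seen. Counts were present in every tissue for 15 of the 53. Pancreas was the tissue most often at 0, for 37 of the 53, and was the only one at 0 for 22. Pancreas libraries were the shallowest, and 3 counts over all 12 of them correspond to 1.04 CPM, so a lower level there was not detectable. By counts of a tissue over its summed totals, 29 of the 53 were highest in brain, 8 in bone marrow, 4 in spleen, 3 each in lung, muscle and pancreas, 2 in the libraries labelled testis and 1 in liver. In pancreas, Mir6921 and Mir6968 rank highest on 3 counts each.

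Summed over all 196 members, the level was highest in brain, where 14 libraries ran from 157 to 523 CPM with a median of 313. Pancreas followed at 0 to 220 CPM with a median of 158, muscle at 74.7 to 154 with 103, and heart at 42.7 to 157 with 85.1. Bone marrow had a median of 62.7, spleen 61.6, lung 52.3, liver 34.4, the libraries labelled testis 26.0, intestine 18.1 and kidney 17.8 CPM. Each tissue overlapped with the next in this order, so no neighbours were separated. The order depends on scaling: with totals scaled by TMM, as in the tests below, the medians were 170.1 CPM in brain, 156.6 in muscle, 106.7 in heart and 66.3 in pancreas. The sums rested on different members. Mir6944 made up 29.7% of the brain sum, Mir6969 72.0% of the pancreas sum, and Mir7068 75.6% and 72.4% of the muscle and heart sums. Without Mir7068, muscle had a median of 23.6 CPM and heart 24.1. In bone marrow no member exceeded 10.4% of the sum, the share of Mir7043. Within bone marrow the pools did not overlap in unscaled CPM, with 58.8 to 90.5 in N469 and 22.3 to 29.6 in N541. With TMM-scaled totals they did overlap, at 26.6 to 63.1 CPM in N469 and 20.4 to 27.9 in N541. Over miRNA rows alone they overlapped too, with Bone marrow 14 of N541 at 84.7 CPM and Bone marrow 4 of N469 at 73.5. In pancreas the N541 libraries lay at 0 to 72.5 CPM and those of N467 at 72.6 to 220. Those N541 libraries, Pancreas 11, 12 and 13, held 0, 2 and 1 member counts on totals of 10255, 66250 and 13795. A pool difference in pancreas cannot be read from so few counts. Pancreas 11 is the library at 0, and without it pancreas ran from 30.2 to 220 CPM. In unscaled CPM brain had the highest median in both of its pools, at 157 to 483 CPM in N469 and 349 to 523 in N541. With TMM-scaled totals the medians of brain and muscle in N469 were 165.0 and 168.5 CPM, and in N541 the highest muscle library, at 519 CPM, lay above all 4 brain libraries (88.9 to 275). The highest brain value is from Brain 11, which held 17201 counts in all, so that 1 count there is worth 58.1 CPM.

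**Figure D2:**
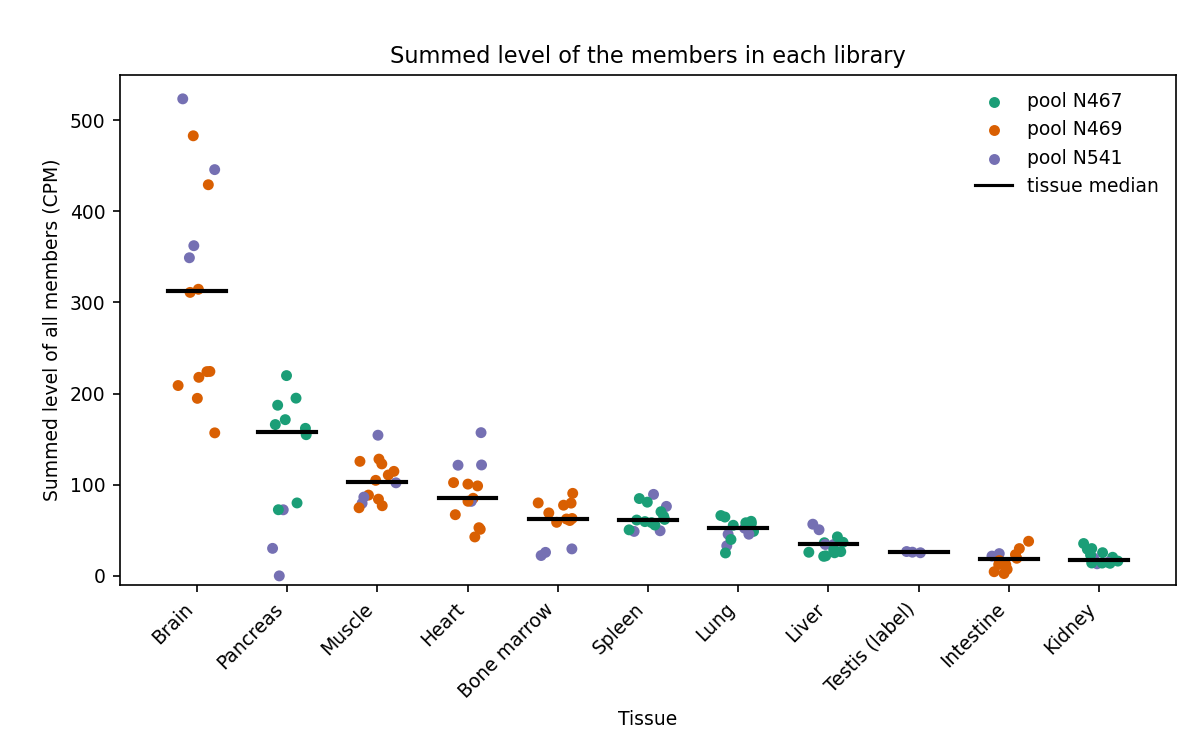
Level of the 196 members summed in each library, in CPM, by tissue and coloured by library pool, with a black line at the tissue median. In these unscaled values brain libraries lie between 157 and 523 CPM, and the 3 bone marrow libraries of pool N541 lie below the 9 of pool N469. With TMM-scaled totals the bone marrow pools overlapped.

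Gene by gene, each tissue was set against the mean of the other 10 in edgeR's quasi-likelihood test over 1268 genes, with library pool as a term. A call needed a Benjamini-Hochberg adjusted p under 0.05 and a log2 fold change of at least 1 in size. These 11 comparisons share their libraries, so a gene high in one tissue is set lower in the others. A filter on low counts kept 43 of the 53 described members, and a member passes it through any tissue where it is high, so counts over the 43 describe those members and no wider set. In these 473 pairs of member and tissue, 92 were called higher and 26 lower, which is 19.4% and 5.5% beside 20.0% and 16.1% for all genes. At least 1 higher call was made for 42 of the 43, and for 97.7% of all genes. By a stricter test against each other tissue in turn, 9 of the 43 were above all 10 in some tissue, while 28.2% of all genes were. Among all genes 12.3% passed that test in brain and 10% in intestine. In the other tissues the share ran from 0.0789% in kidney to 1.34% in pancreas, with 0.394% in muscle, 0.710% in lung and 0.946% in liver. Of the 9 members, 7 passed in brain, 1 in muscle and 1 in pancreas.

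Brain had the most higher calls, for 30 of the 43 members, where 36.7% of all genes were. The number called lower was 0 by edgeR, where 22.6% of all genes were lower, with 0 members at an unadjusted p under 0.05. DESeq2 called 1 lower, and its share of all genes is not given. The median log2 difference of the members in brain was 2.06, and that of all genes tested was 0.14. Lung had 17 members higher and 1 lower, with 17.4% and 14.2% of all genes. In pancreas the median member was at -3.01 and the median gene at -0.95, with 2 members higher and 2 lower (11.3% and 22.0% of all genes). DESeq2 called 35 higher there, and the share of all genes it called higher in pancreas is not given. Of all described members, tested or not, 37 had 0 counts in pancreas and 14 had 1 to 3. For those members neither the fitted differences nor the calls of either method in pancreas can be read as a level. Bone marrow had 7 higher and 6 lower (28.9% and 18.6%), liver 9 and 1 (11.2% and 21.0%), muscle 8 and 2 (19.2% and 10.7%), and heart 7 and 3 (12.1% and 17.6%). Spleen had 6 higher and 3 lower (20.4% and 14.4%), kidney 3 and 1 (14.3% and 19.2%), the libraries labelled testis 2 and 1 (14.2% and 6.86%), and intestine 1 and 6 (34.7% and 10%). Without scaling of the library totals the median of all genes moved by between -0.84 in kidney and 0.84 in bone marrow. Under that setting brain had 35 members higher and 0 lower, bone marrow 16 and 2, spleen 15 and 0, and muscle 7 and 6. Liver had 6 and 3, intestine 1 and 8, and kidney 0 and 5. The median member moved with the median gene. In bone marrow members went from -0.05 to 0.89 and all genes from 0.27 to 1.11. In spleen members went from -0.10 to 0.73 and all genes from -0.03 to 0.71. In kidney members went from -0.01 to -0.96 and all genes from -0.32 to -1.16. The share of all genes called with other scalings is not given. With relative log expression size factors, brain had 30 and 0, bone marrow 15 and 3, lung 10 and 1, heart 7 and 5, liver 5 and 3, intestine 3 and 3, and kidney 2 and 3.

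**Figure D3:**
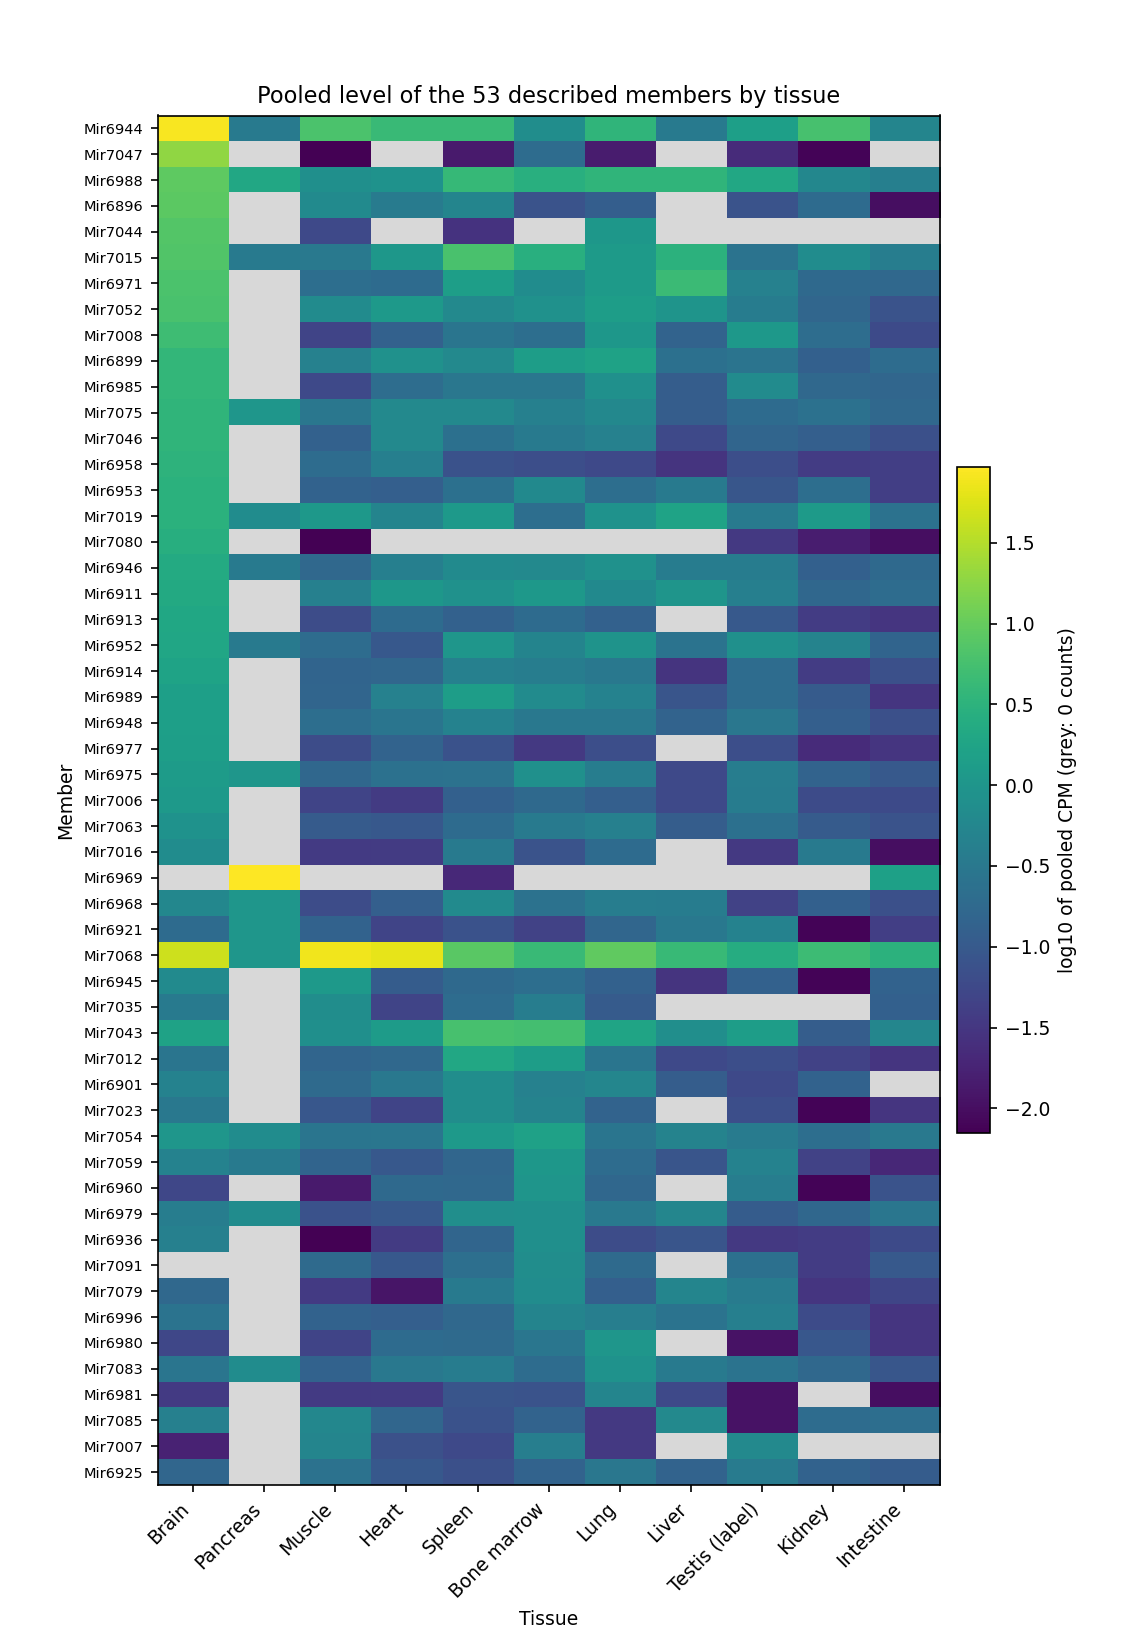
Level of each of the 53 described members (rows) in each tissue (columns) as log10 of pooled CPM, that is counts over summed library totals, with grey where a tissue holds 0 counts. Rows are grouped by their highest tissue, and the brain block at the top holds 29 members; the pancreas column is grey for 37.

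The member with the most counts was Mir7068, the whole 74-base intron of Cherp at chr8:72470016-72470089, minus strand; Cherp encodes a protein of calcium balance in the endoplasmic reticulum. Its level in muscle ran from 44.5 to 139 CPM with a median of 70.8, and in heart from 17.5 to 132 with a median of 66.4. Brain followed at 23.6 to 86.6 CPM with a median of 47.1. These 3 tissues overlapped with each other, and each lay above every library of lung (6.18 to 16.2), spleen (5.66 to 13.5), bone marrow (2.73 to 9.61) and the libraries labelled testis (1.85 to 3.12). Medians were 4.78 CPM in liver, 4.35 in kidney and 4.10 in intestine. Pancreas had 3 counts in all. Against the mean of the other tissues the log2 difference was 4.71 ± 0.24 in muscle (SE; edgeR adjusted p = 6.1348e-38) and 3.45 ± 0.24 in heart (adjusted p = 7.1741e-27). It was -4.30 ± 0.61 in pancreas (adjusted p = 1.8721e-09) and -1.11 ± 0.28 in spleen (adjusted p = 4.4413e-04). The difference of muscle from heart was 1.14 (adjusted p = 0.024648). That call held in 4 of 18 alternatives, in which the difference ran from 0.31 to 1.10 and the adjusted p from 2.53e-04 to 1. Unscaled totals gave the lowest value. The call also ended without Pancreas 11 (0.71), without Brain 11 (0.72), without Testis 13 (0.76), without Liver 4 (0.77), and without Testis 11 or Testis 12 (0.91 in each case). The spleen call ended without Testis 11 (-0.89) or Testis 12 (-0.91), where the difference was smaller in size than 1. It also ended with unscaled totals (-0.33), with no pool term (-0.80) and in pool N541 alone (-0.07).

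Mir6944 is the whole 96-base intron of Dbn1 (chr13:55477681-55477776, minus strand), which encodes drebrin, an actin-binding protein of dendritic spines. In brain it ran from 0 to 247 CPM with a median of 45.1, and Brain 11 was the library at 0. Muscle had 0 to 25.8 CPM (median 5.89), spleen 0.473 to 10.8 (4.26), heart 2.16 to 8.49 (3.72), kidney 0 to 17.4 (2.93) and lung 1.14 to 13.6 (2.91). In brain 9 of 14 libraries lay above the highest value elsewhere, in Muscle 9, so the ranges overlapped. The levels of Mir6944 went down further in the libraries labelled testis (median 1.72), bone marrow (0.816) and intestine (0.446), and medians were 0 in liver and pancreas. Brain was 5.04 ± 0.34 above the mean of the others on the log2 scale (adjusted p = 3.8101e-29) and 2.11 above muscle, the next tissue (adjusted p = 5.7105e-05). The difference was called in 17 of 18 alternatives, the exception being pool N541 alone. In all, Mir6944 was called higher in 4 tissues, brain included, and lower in 4. Beside brain, calls are named only where they were among the 3 largest of a tissue in their direction. These were lower in bone marrow (-2.16 ± 0.50), liver (-3.26 ± 0.65) and pancreas (-4.37 ± 1.06), and higher in kidney (1.52 ± 0.39). The pancreas call was lost with DESeq2 (-0.82), and all 4 of these named calls in pool N541 alone. The kidney call was lost with unscaled totals (0.44), with DESeq2 and in pool N541 alone; its adjusted p was 7.3611e-04 and ran from 3.685e-10 to 0.5098 over 18 alternatives.

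The smaller whole introns Mir6958 and Mir7080 were also brain-led. Mir6958 fills a 73-base intron of Dennd6b (chr15:89185465-89185537, minus strand), a gene of the DENN-domain family that acts on Rab GTPases. It had counts in all 14 brain libraries, from 0.863 to 174 CPM with a median of 2.79; the highest value is 3 counts in Brain 11 and the next is 24.0. Of these libraries 10 lay above the highest elsewhere, 2.02 CPM in Muscle 13. Mir6958 was 5.39 ± 0.47 above the mean (adjusted p = 2.6941e-20), and 2.95 above heart (adjusted p = 0.013871; called in 12 of 17 alternatives). Mir7080, in a 67-base intron of Cpne7, a copine that binds membranes with calcium, had 151 of its 158 counts in brain. Brain ran from 0 to 8.92 CPM with a median of 2.67, and the highest value elsewhere was 0.0959 in Kidney 3. All 10 brain libraries with a count lay above that, and Brain 1, 5, 10 and 11 were at 0. Its log2 difference from the mean was 7.02 ± 0.61 (adjusted p = 5.1574e-16), which was lost with DESeq2 (5.17, adjusted p = 0.08821, the highest of 16 alternatives). It was not called above each other tissue (adjusted p = 0.19948). In contrast Mir7091, the whole intron of the X-linked Dnase1l1, a DNase I-like gene, had 0 counts in brain and its highest levels in bone marrow (0 to 2.12 CPM, median 0.788). It did not pass the low-count filter, so it was not tested.

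Among the tailed members, Mir7044 joined brain with lung. It is the end of a 705-base intron of Rasgef1a (chr6:118085192-118085263, plus strand), an exchange factor for Ras-type GTPases. Brain ran from 0 to 59.7 CPM with a median of 6.74, lung from 0.515 to 2.29 with a median of 1.12, and 7 tissues were at 0 counts. All 13 lung libraries had counts, and 12 of 14 brain libraries lay above every lung library. Brain was 8.18 ± 0.41 above the mean (adjusted p = 2.4081e-27) and lung 4.49 ± 0.37 (adjusted p = 2.8192e-16). Fitted differences this large depend on the prior count that edgeR adds where tissues are at 0. Brain was 3.35 above lung (adjusted p = 7.2525e-06), a call that held in 14 of 18 alternatives, with the value from 1.19 to 4.41. It was lost with DESeq2, in pool N541 alone, and without Testis 11 or Testis 12 (1.51 in each case), although both hold 0 counts of Mir7044.

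Of the 7 members above each other tissue in brain, Mir6896 was the one whose brain libraries did not overlap with any other library. It is the end of a 1236-base intron of Dst (chr1:34117359-34117431, plus strand), whose product dystonin links the cytoskeleton. Brain ran from 4.39 to 116 CPM with a median of 8.09; the highest value is 2 counts in Brain 11 and the next is 31.8. The highest value elsewhere was 1.70 CPM in Heart 5. Muscle had a median of 0.622, spleen 0.562 and heart 0.339 CPM, and liver and pancreas were at 0 counts. The log2 difference in brain was 6.38 ± 0.40 (adjusted p = 3.2015e-29), and 2.73 from muscle (adjusted p = 6.7133e-07; called in 17 of 18 alternatives). Heart was also called higher, at 1.93 ± 0.50 (adjusted p = 0.0011424), which was lost with DESeq2 and in pool N541 alone.

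Mir7052 and Mir6977 passed the test against each tissue less firmly. Mir7052, in Josd2, a deubiquitinase gene (chr7:44470347-44470411, plus strand), ran from 0 to 116 CPM in brain with a median of 5.24; its highest value is again 2 counts in Brain 11, and the next is 11.5. Lung had 0.152 to 2.70 CPM with a median of 1.52, and heart 0.553 to 2.53 with 1.10, so levels outside brain were broad. Brain was 1.48 above lung (adjusted p = 0.028054), which held in 7 of 18 alternatives with adjusted p from 3.017e-04 to 1. It was lost without Liver 4 (1.15, adjusted p = 0.05667), Brain 11 (1.21), Pancreas 11 (1.30), Testis 13 (1.34), and Testis 11 or Testis 12 (0.39 in each case). Mir6977 starts at the first base of a 79-base intron of Ptprs (chr17:56418846-56418909, minus strand), a receptor tyrosine phosphatase of axons, and ends 15 bases before the intron does. It had 81 of 142 counts in brain, at 0 to 11.9 CPM with a median of 1.21. Brain was 2.56 above heart (adjusted p = 0.026749), which held in 9 of 15 alternatives. It was -1.25 under DESeq2, and the call was lost without Testis 11 (1.72) or Testis 12 (2.20).

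**Figure D4:**
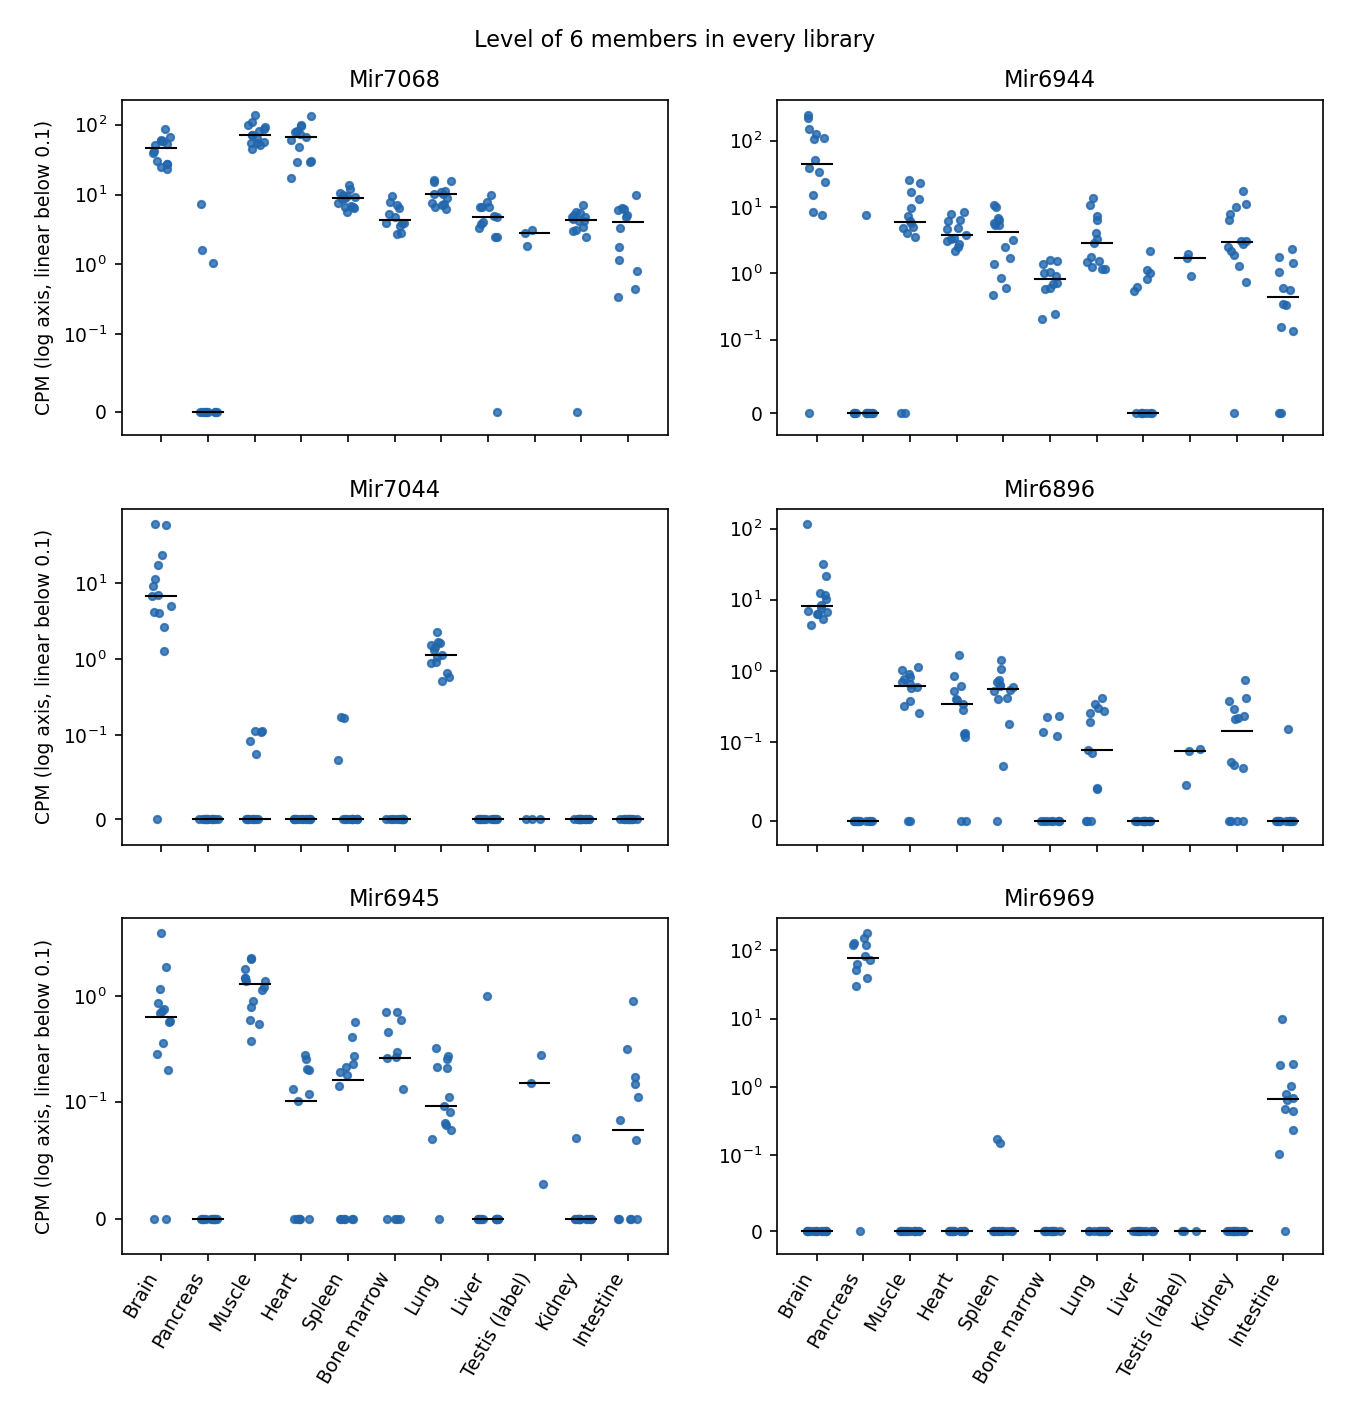
Level of 6 members in every library by tissue, in CPM on a log axis that is linear below 0.1, with a black line at the tissue median. Mir7068 is high in muscle, heart and brain, Mir6944 and Mir6896 in brain, Mir7044 in brain and at lower values in lung, Mir6945 in muscle and brain, and Mir6969 in pancreas with lower values in intestine.

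Mir6969 was the pancreas member. It is the end of a 320-base intron of Clps (chr17:28558441-28558501, minus strand), which encodes colipase, the cofactor of pancreatic lipase that acinar cells secrete. The 12 pancreas libraries ran from 0 to 177 CPM with a median of 77.7, on 267 counts. The library at 0 was Pancreas 11, where 3 counts would be 293 CPM, so the level of the others was not detectable there. Without it the range was 30.2 to 177 CPM. Spleen had 3 counts, 8 tissues had 0, and intestine had 156. Every pancreas library but Pancreas 11 lay above the highest intestine library, Intestine 1, at 9.95 CPM. However, Pancreas 3, 4 and 12 held 2 counts of Mir6969 each, and Pancreas 13 held 1, worth 72.5 CPM. In libraries this shallow any count lies above Intestine 1, so the separation rests on the deeper pancreas libraries. Pancreas was 11.58 ± 1.12 above the mean on the log2 scale (adjusted p = 4.1976e-12). It was 5.86 above intestine (adjusted p = 0.017032). That call held in 16 of 17 alternatives and missed the threshold with DESeq2 (adjusted p = 0.06816; the alternatives ran from 4.92e-08 to that value).

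Mir6969 was also the only member called higher in intestine, at 5.14 ± 1.56 (adjusted p = 0.0049476). Pancreatic markers differed between the intestine libraries. Intestine 5 and 6, with Mir216a at 35.6 and 25.7 CPM, had Mir6969 at 0.680 and 0.645 CPM, on 4 and 10 counts. Intestine 3 and 8, with Mir216a at 0.145 and 0 CPM, had Mir6969 at 1.02 and 0.777, on 7 and 3 counts. With so few counts these 4 libraries cannot show how closely Mir6969 went with Mir216a. Intestine 1, 9 and 10 held 66, 31 and 26 counts. Intestine 1, 5, 6, 9 and 10, with acinar Mir216a at 25.7 to 148 CPM, held 137 of the 156 counts, at 0.645 to 9.95 CPM with a median of 2.08. The other 7 intestine libraries, with Mir216a at 0 to 0.156 CPM, held 19 counts, at 0 to 1.02 CPM with a median of 0.442, and 6 of the 7 had a count. Fitted without the first 5, a set chosen after seeing the data, the intestine difference was 3.81 (adjusted p = 0.002822). Among libraries with at least 100000 counts the difference was 4.44 and was not called (adjusted p = 1); over 17 alternatives it ran from 3.81 to 5.90, and the others were called. The part of pancreatic RNA in these intestine counts was not tested.

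**Figure D5:**
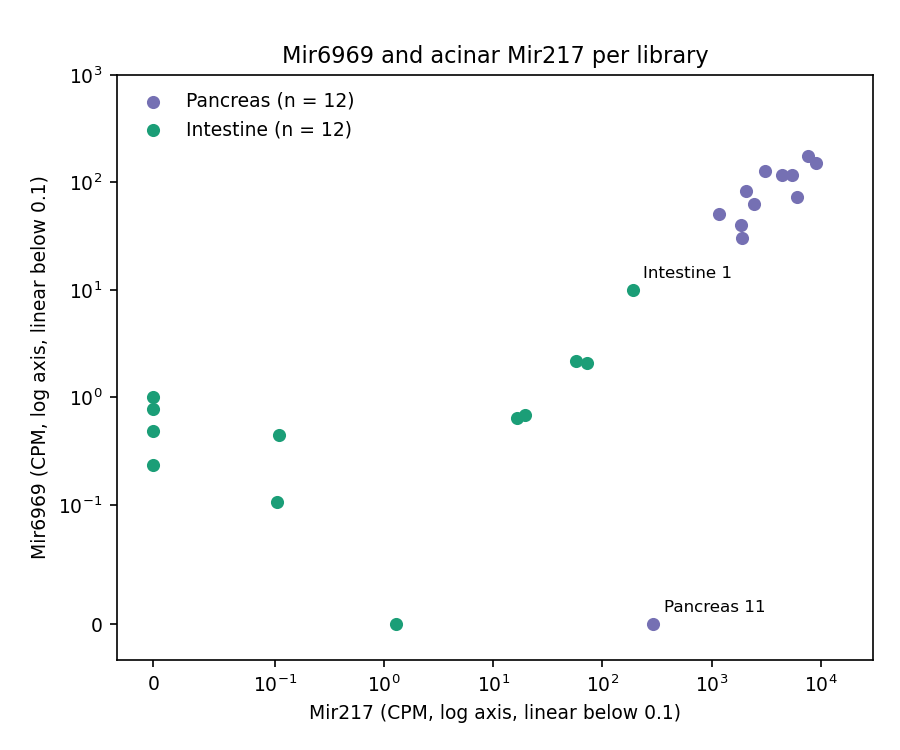
Mir6969 against acinar Mir217 in each pancreas and intestine library, both in CPM on log axes that are linear below 0.1. Pancreas libraries other than Pancreas 11 lie at 30.2 to 177 CPM of Mir6969, and the 5 intestine libraries with Mir217 from 16.5 to 190 CPM include Intestine 1, the highest of its tissue.

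In skeletal muscle Mir6945 and Mir7035 followed Mir7068 in size of difference. Mir6945 is in Pdlim7, a PDZ and LIM domain protein of the actin cytoskeleton (chr13:55507625-55507692, minus strand). All 14 muscle libraries had counts, from 0.374 to 2.29 CPM with a median of 1.29, and brain had 0 to 3.98 with a median of 0.634, so the tissues overlapped. Heart, the other striated muscle, had a median of 0.101 CPM and no library above 0.277. Muscle was 4.12 ± 0.39 above the mean (adjusted p = 1.1885e-17), and missed the test against each tissue at 2.05 above brain (adjusted p = 0.091393). With the replicate block for animal, that difference was 2.15 and was called (adjusted p = 0.04203), and so it was with no pool term (2.06, adjusted p = 0.01941). In the other alternatives it was not called, with adjusted p from 0.05357 to 1. Mir7035, in the Ras GTPase-activating gene Rasa4 (chr5:136105522-136105603, plus strand), ran from 0.114 to 2.69 CPM in muscle with a median of 0.738. Bone marrow had 0 to 1.43 CPM with a median of 0.326, and heart had 4 counts in all. Muscle was 3.51 ± 0.41 above the mean (adjusted p = 2.2778e-12).

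In the blood-forming tissues the levels were spread over several members. Mir7043, in the Ras-association gene Rassf4 (chr6:116645978-116646047, minus strand), ran from 1.09 to 10.5 CPM in bone marrow with a median of 6.87, and from 2.34 to 21.8 in spleen with a median of 5.89. Both overlapped with brain (0 to 3.98) and lung (0.269 to 3.86). Its medians elsewhere were 1.71 CPM in brain, 1.60 in lung, 1.38 in the libraries labelled testis, 1.11 in heart, 0.773 in muscle, 0.623 in liver, 0.542 in intestine and 0.0903 in kidney, and pancreas had 0 counts. For Mir7043, spleen was 3.06 ± 0.31 above the mean (adjusted p = 1.3192e-15) but was not called above each other tissue (adjusted p = 0.15668). Mir7012, in Dennd4b (chr3:90270149-90270212, plus strand), had 0.687 to 3.59 CPM in spleen with a median of 2.09 and 0.137 to 4.24 in bone marrow with a median of 1.50. These were higher by 3.34 ± 0.36 (adjusted p = 2.8096e-14) and 2.45 ± 0.41 (adjusted p = 1.2088e-07). The highest library of any other tissue was at 0.708 CPM, in brain, just above the lowest spleen library. Mir6989, in the kinase gene Map4k2, was higher in spleen by 2.46 ± 0.37 (adjusted p = 8.0785e-09), at 0.737 to 3.68 CPM, and brain overlapped at 0 to 3.16. In bone marrow Mir6936, in the sirtuin gene Sirt7, had 0 to 2.57 CPM (2.77 ± 0.49 above the mean, adjusted p = 6.3958e-07). Mir7059, in Cln3, which encodes a lysosomal membrane protein, had 0.461 to 2.98 CPM there (1.75 ± 0.36, adjusted p = 1.0696e-05).

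In lung the larger differences after Mir7044 were for Mir6980 and Mir6899. Mir6980 is in Arap3, a GTPase-activating gene for Arf proteins, and had 0.0858 to 2.96 CPM in lung with a median of 1.02. The highest value elsewhere was 1.03 CPM in Bone marrow 5, and 6 of 13 lung libraries lay above it. Lung was 3.90 ± 0.41 above the mean (adjusted p = 2.229e-14), and not called above each other tissue (adjusted p = 0.41347). The latter call was made when Testis 11 or Testis 12 was left out, and in no other alternative. Mir6981, the whole of another intron of Arap3, had 111 of its 144 counts in lung, at 0.136 to 0.885 CPM, and did not pass the filter. Mir6899, in the Krüppel-like factor gene Klf7, was higher in lung by 2.35 ± 0.39 (adjusted p = 1.8044e-07), at 0.228 to 3.13 CPM, while brain had 0 to 4.99.

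In liver, 9 members were called higher, but only 4 without Liver 4, which has 13406435 counts. Mir6971, in the RNA helicase gene Skiv2l, shows this most. Of its 157 liver counts Liver 4 held 142, at 10.6 CPM, and the other 12 libraries held 15, at 0 to 3.33 CPM. The liver difference was 3.25 ± 0.54 (adjusted p = 2.2099e-07), and 0.78 without Liver 4 (adjusted p = 0.4036). Without that library the fit also called 2 liver members lower in place of 1. The share of all genes called in liver without Liver 4 is not given. Mir6971 was highest in brain, at 0 to 25.7 CPM with a median of 5.56, and 2 of 14 brain libraries lay above Liver 4. Its other medians were 1.50 in spleen, 1.14 in lung, 0.812 in bone marrow, 0.504 in the libraries labelled testis, 0.444 in liver and under 0.2 in heart, muscle, kidney and intestine, with 0 counts in pancreas. Mir7085, in Slc37a4, the glucose-6-phosphate transporter gene of liver and kidney, was called higher in 3 tissues, liver and kidney among them. Liver had 0 to 1.77 CPM (2.99 ± 0.64 above the mean, adjusted p = 6.1253e-05), and kidney 0 to 1.24 CPM (1.90 ± 0.61, adjusted p = 0.007343). The kidney call was lost with unscaled totals (1.01, adjusted p = 0.1598, the highest of 15 alternatives). Muscle held more counts of Mir7085, 81 of 220, with a median of 0.515 CPM. On the log2 scale liver was 0.39 above muscle, the next tissue, and 0.98 above kidney. The fitted level of muscle thus lay between those of liver and kidney. Mir6911, in the RNA-binding protein gene Dazap1, had 0 to 6.67 CPM in liver (2.45 ± 0.40, adjusted p = 2.0462e-07), overlapping with brain at 0 to 4.39. In kidney, Mir6953 was also called higher, at 1.46 ± 0.55 (adjusted p = 0.024805), and was lost in 4 alternatives, unscaled totals among them.

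In the libraries labelled testis 2 members were higher. Mir7008, in the protein kinase gene Prkci, ran from 0.605 to 1.51 CPM (2.80 ± 0.56 above the mean, adjusted p = 3.514e-05), below the brain median of 4.50. Mir6921, in the sterol regulator gene Srebf1, ran from 0.333 to 0.688 CPM (2.15 ± 0.51, adjusted p = 4.8916e-04), a call lost with DESeq2 (1.62, adjusted p = 0.0961, the highest of 14 alternatives). The pancreas call for Mir6921, 3.06 ± 0.99 (adjusted p = 0.014578), stands on 3 counts in 3 of 12 libraries.

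Among the 8 described members with the highest mean of tissue medians, Mir6988 and Mir7015 were spread over many tissues. Mir6988, in the ubiquitin ligase gene Syvn1 (chr19:6051334-6051392, plus strand), ran from 0 to 25.7 CPM in brain with a median of 8.41. Its medians were 3.93 in spleen, 2.89 in lung, 2.52 in bone marrow, 2.22 in liver, 1.88 in the libraries labelled testis, 0.848 in heart, 0.582 in muscle, 0.511 in kidney, 0.323 in intestine and 0 in pancreas. Only 7 of 14 brain libraries lay above the highest library elsewhere, Spleen 11 at 8.51 CPM. Mir7015, in Smap2, an Arf GTPase-activating gene (chr4:120973259-120973322, minus strand), ran from 0 to 12.0 CPM in brain with a median of 6.93 and from 3.03 to 13.5 in spleen with a median of 5.11. No brain library lay above the highest spleen library. Bone marrow had a median of 3.34, liver 1.45, heart 1.20, lung 0.964, kidney 0.824, intestine 0.379, the libraries labelled testis 0.302 and muscle 0.298 CPM, and pancreas had 1 count.

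Lower calls were fewer, and several fell to members that are high elsewhere. In intestine, Mir7059 was at -2.49 ± 0.66 (adjusted p = 6.3048e-04), with 2 counts in 12 libraries. Mir6988 was at -1.70 ± 0.42 (adjusted p = 2.5919e-04) there, and Mir7075, in the telomere-binding gene Terf2, at -1.40 ± 0.46 (adjusted p = 0.0067596). The Mir7075 call was lost with no pool term (-0.80) and without Intestine 1, 5, 6, 9 and 10 (-1.30, adjusted p = 0.06067; highest of 16 alternatives 0.08997). In heart Mir6952, in the polarity gene Scrib, was at -2.27 ± 0.55 (adjusted p = 3.8417e-04), a call lost among libraries with at least 100000 counts (-1.66) and in pool N541 alone (-0.85). Mir6979 at -1.66 ± 0.69 (adjusted p = 0.048511) and Mir6988 at -1.26 ± 0.36 (adjusted p = 0.0029805) were also called lower in heart, and neither held throughout. Mir6979 was lost without Brain 11 (-1.36), Pancreas 11 (-1.36), Testis 13 (-1.37) or Liver 4 (-1.20), with adjusted p from 0.005718 to 0.2008 over 16 alternatives. Mir6988 came below 1 in size without Brain 11 (-0.96), Pancreas 11 (-0.98) or Liver 4 (-0.95). In bone marrow Mir6921 was at -2.04 ± 0.58 (adjusted p = 0.0015298) and Mir7019, in the mitochondrial kinase gene Pink1, at -1.91 ± 0.51 (adjusted p = 8.1966e-04). Mir7019 was also called lower in spleen, at -1.02 ± 0.43 (adjusted p = 0.042034), and Mir6921 at -1.23 ± 0.51 (adjusted p = 0.042419). Both spleen calls were lost without Testis 11 (-0.74 and -1.06) or Testis 12 (-0.69 and -1.03), and that of Mir7019 without Liver 4 (-0.97). With unscaled totals they were -0.16 for Mir7019 and -0.69 for Mir6921, and both calls were also lost with no low-count filter (-0.99 and -1.28). Mir7019 in spleen was further lost with relative log expression size factors (-0.99), with no pool term (-0.14) and in animals 1 to 10 alone (-0.25). In muscle the calls were Mir7015 at -1.32 ± 0.39 (adjusted p = 0.0038757) and Mir6946, in the vesicle coat gene Sec24c, at -1.27 ± 0.43 (adjusted p = 0.011549). The latter was lost with no pool term (-0.96) and in animals 1 to 10 alone (-1.28), and was 0.70 in pool N541 alone. Mir6921 in kidney (-2.24 ± 0.78, adjusted p = 0.021069), Mir7054 in lung (-1.06 ± 0.40, adjusted p = 0.02594) and Mir7015 in the libraries labelled testis (-1.64 ± 0.61, adjusted p = 0.039235) complete the named lower calls. For Mir6921 the kidney call was lost with DESeq2 (-1.43) and the bone marrow call with unscaled totals (-1.46). The Mir7054 call held in 3 of 17 alternatives, and was below 1 in size without any of Brain 11 (-0.99), Pancreas 11 (-0.99), Testis 13 (-0.99), Liver 4 (-0.96), Testis 11 (-0.51) or Testis 12 (-0.51). The testis call of Mir7015 was lost without Testis 11 (-1.34), 12 (-1.09) or 13 (-1.65).

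Between pools, 6 of the 43 tested members differed in N541 from the mean of the other pools with tissue in the model. Higher were 4, where 7.73% of all genes were, and lower 2, where 21.2% were. Mir7006, in the zinc finger gene Zfp512b, was higher by 1.53 ± 0.30 (adjusted p = 7.5336e-06), Mir6996 in Notch1 by 1.29 ± 0.31 (adjusted p = 1.7852e-04), Mir6958 by 1.26 ± 0.39 (adjusted p = 0.0040559) and Mir7059 by 1.18 ± 0.26 (adjusted p = 5.3666e-05). The levels of these 4 were low, with medians of 0 CPM in the other pools and 0.0723 to 0.289 in N541. By counts over summed totals, Mir6958 was at 0.246 CPM in N541 and 0.288 in the other pools. That is opposite to its fitted direction, which has tissue in the model. Mir6944 was at -1.22 ± 0.25 (adjusted p = 1.7631e-05) and Mir6979, in the formin gene Diaph1, at -1.40 ± 0.39 (adjusted p = 0.0013588). Within animals 1 to 10 alone, 25 described members could be tested, and 66 higher and 16 lower calls were made, with 10 members above each other tissue. Of all genes in that fit, 22.2% of pairs were higher, 18.6% lower, and 41.0% of genes were above each other tissue in one of them. Within pool N541 alone, 18 were tested, with 34 higher calls, where 23.3% of all pairs were higher, 10.6% lower, and 10% of genes above each other tissue. There the lower calls and the members above each other tissue were both 0 by edgeR, with 0 and 1 at an unadjusted p under 0.05.

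Well-known mirtrons outside this number range gave a comparison. Mir877 ran from 21.9 to 119 CPM in brain with a median of 66.4, and bone marrow followed at 4.37 to 44.7 with a median of 31.9. Brain was 2.16 ± 0.23 above the mean (adjusted p = 3.4502e-16), and heart at -1.40 ± 0.27 (adjusted p = 6.4193e-06). Mir1224 had 18.8 to 91.5 CPM in brain with a median of 60.4 and at most 14.2 elsewhere, in a pancreas library, with 7 counts in that tissue. Its differences were 8.13 ± 0.30 in brain (adjusted p = 3.9149e-52) and 4.43 ± 0.40 in intestine (adjusted p = 6.236e-19), where it ran from 0.516 to 4.07 CPM. Pancreas was also called higher for Mir1224, by 4.97 ± 0.73 (adjusted p = 2.1798e-07) on those 7 counts, and brain was not called above pancreas. Mir702 ran from 0 to 43.2 CPM in brain with a median of 10.6 and from 1.54 to 13.9 in bone marrow with a median of 5.48. These were higher by 3.56 ± 0.34 (adjusted p = 2.815e-18) and 2.03 ± 0.35 (adjusted p = 2.5538e-07). All 3 were called higher in brain, as were 30 of the 43 members and 36.7% of all genes.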

How the data were processed

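The unit was raw counts per small RNA gene and library, deposited by the authors without normalisation. The submitters' processing notes name mm10, GRCm38, STAR 2.5.1 and featureCounts. Strand settings, and what was done with reads that match several places, are not stated there. A TruSeq small RNA kit was used, per the labels' protocols. Of 139 samples in the series, 131 columns matched a sample by name and 3 testis columns an animal only, taken to be pool N541; not analysed here were Pancreas 14, Liver 3 and 1 library per testis. Levels are CPM of the library total. With no molecular identifiers, floors cover counting error only.

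Tests used edgeR 4.0.16 with limma 3.58.1 in R 4.3.3, filterByExpr (tissue as group, minimum count 10, 1268 genes kept), TMM factors (0.1985 to 5.884) and terms for tissue and pool. The error is a standard error, taken as the log2 fold change over the square root of F. For a tissue above each other tissue, the largest of 10 one-sided p-values was adjusted. The fit was tested on simulated data. DESeq2 1.42.0, other scalings, no filter, no pool term, depth, left-out libraries and an animal block were alternatives; leaving out Intestine 1, 5, 6, 9 and 10, Liver 4 or Brain 11 was added after seeing the data. Replicate numbers are animals, so the same number pairs libraries by design: over 583 same-animal pairs the median correlation of deviations was 0.034, and over 2139 pairs of other animals of a pool it was -0.023. Whether each library is a separate RNA preparation is not stated.

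The members and lists were chosen with earlier results of these data known. Named are the 8 described members with the highest mean of tissue medians, those above each other tissue, up to 3 higher and 3 lower calls per tissue, Mir877, Mir1224 and Mir702, and those at the rule's threshold; Mir7091 and Mir6981 (whole introns) and the members called between pools were added after their values were seen, and 1 member named by the rule is not reported here. Positions are from GENCODE M21 and sequences from RefSeq, both GRCm38; 180 of 196 members matched a mature sequence.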

Additional observations from a re-analysis of the deposited data

How the results depend on the processing

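Higher calls numbered 92, and 52 without the testis libraries (20 members tested) and 34 in pool N541 alone (18 tested); lower calls numbered 26, and 96 with DESeq2, 15 without the testis libraries, 16 in animals 1 to 10 and 0 in pool N541. Members above each other tissue were 9, and 15 with unscaled totals, 14 with no pool term, 5 with no low-count filter, 5 among libraries with at least 100000 counts, 5 without the testis libraries and 0 in pool N541 alone. Leaving out each testis library in turn gave 105 to 113 higher calls, 26 to 29 lower and 6 to 7 members above each other tissue. For these settings the share of all genes called is not given, apart from animals 1 to 10 alone and pool N541 alone above. Without that share, a change in the number of calls cannot be read as particular to the members. Pool differences went from 6 to 2 without the testis libraries. For Mir877, Mir1224 and Mir702, 8 calls became 17 with DESeq2 and 5 in pool N541 alone. A rule of 5 counts described 106 members and left 90 between. With TMM-scaled totals the summed medians were 170.1 CPM in brain, 156.6 in muscle, 66.3 in pancreas, 42.5 in the libraries labelled testis, 41.2 in spleen, 30.9 in kidney and 29.7 in bone marrow. Over miRNA rows alone they were 96.0 in spleen, 68.9 in lung, 50.8 in the libraries labelled testis and 35.3 in intestine; without Mir7068, 39.9 in lung, 24.1 in heart, 23.6 in muscle and 23.5 in the libraries labelled testis. Reversed were Mir6977 in brain against the next tissue, -1.25 with DESeq2, and Mir6946 in muscle, 0.70 in pool N541 alone. The cause was not tested. The number of members tested differed between settings, from 18 in pool N541 alone to 53 with no low-count filter. Among libraries with at least 100000 counts it was 46, beside 43 with all libraries. With the replicate block for animal, 93 calls were higher, 28 lower and 10 above each other tissue; 90 of 92, 25 of 26 and 9 of 9 remained, and every named call was kept, while Mir6945 in muscle became called above each other tissue (adjusted p = 0.04203).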

Other observations

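Below the count rule, 11 further members passed the filter and were tested; they were picked here after their values were seen. Mir6972, in the complement gene Cfb, ran from 0 to 4.04 CPM in liver with a median of 1.11. Liver held 55 of its counts. Mir6978, in the complement gene C3, ran from 0 to 3.83 CPM in liver with a median of 1.34, on 35 counts. Members picked in this way had to be high somewhere to pass, so no test is given for them. Both hosts are known for high expression in liver.

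Mir7076, in the chymotrypsinogen gene Ctrb1, had 56 of 62 counts in pancreas, at 0 to 62.4 CPM with a median of 25.2, and the other 6 in intestine. Mir6982, in the neuronal kinase gene Camk2a, had 53 of 54 counts in brain, and Mir7066, in the brain proteoglycan gene Ncan, 47 of 48.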
